A study of Mus musculus with 7 samples.

Results

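The genes of the cytosolic ribosomal proteins were compared between mouse cortical neurons that carried a luciferase hairpin and neurons that received no virus. A member was a probe set, a group of short oligonucleotides on the array that reports 1 transcript, whose annotation named a single gene with an Rpl or Rps symbol and a number or the letter p. Ribosomal S6 kinases, an Rps19 binding protein and pseudogenes were not counted. Of 214 probe sets that named such a gene, 110 named several genes, usually processed copies, and 2 named only a pseudogene. Of the 102 with 1 gene, 40 had the _x ending that marks probes shared with other transcripts, and 11 stayed under an intensity of 50 on all arrays. The 51 members that were left came from 39 genes, 17 of the small subunit and 22 of the large subunit, among 22748 probe sets tested and 45101 on the array, or 39 of 12315 tested genes. Rpl37, Rpl38, Rpl39l, Rpl3l, Rps14, Rps16, Rps2 and Rps29 lost all their single-gene probe sets to these filters. Rplp1 and Rpl5 were read only by probe sets that name several genes. So were many others, such as Rpl3, Rpl10, Rpl23a, Rpl26, Rps12 and Rps23, so the members cover only part of the cytosolic ribosome.

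All neurons came from cortex of C57/Bl6J mouse embryos at embryonic day 16 and were at day 16 in vitro when total RNA was taken. Luciferase arrays, 4 in number, held neurons treated for 2 weeks with a lentivirus that expresses a short hairpin RNA against firefly luciferase, a target that mouse cells lack. Blank arrays, 3 in number, held naïve neurons, which the study's methods describe as not transduced. The group is taken from the source and treatment labels, while the free description of these arrays repeats the hairpin treatment of the others. Virus, hairpin and the green fluorescent reporter of the vector were present together in the first group and absent from the second, so their parts cannot be told apart. The hairpin was driven by a human H1 promoter, which is active in most cell types, and the cultures were not sorted. A further array of non-transduced neurons was omitted by the authors after quality control. No label says whether the arrays of a group came from separate embryos or litters, so the p-values cover the spread of these cultures, which may be technical. In bulk RNA, fewer cells of a type and less RNA per cell cannot be told apart.

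Cytosolic ribosomes build every protein outside the mitochondria. The small subunit reads the message, and the large subunit joins the amino acids and releases the chain through a tunnel. Their proteins are made in nearly equal amounts, and cells adjust all of them together, largely at the level of translation. Most of their messages begin with a cytosine followed by a run of pyrimidines, the TOP motif, through which mTOR and Larp1 set how much of the message is translated. In neurons the same pathway couples growth and synaptic signals to protein synthesis, and part of it acts in dendrites. An array reads the amount of a message and not its translation.

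The annotated start sites of 6 members show the sequences around the start, where a TOP motif would lie. Each line gives 15 bases before and 15 bases from the annotated start, 5′ to 3′, with the longest run of C and T in capitals. The first 3 lines are ordinary ribosomal protein genes with a run across the start, and the last 3 are the genes of paralogs (relatives of an ordinary ribosomal protein), which are described below.
Rpl35: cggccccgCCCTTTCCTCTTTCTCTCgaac
Rps10: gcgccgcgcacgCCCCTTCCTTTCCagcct
Rps27: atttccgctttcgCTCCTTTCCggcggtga
Rps27l: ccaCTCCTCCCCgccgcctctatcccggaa
Rpl7l1: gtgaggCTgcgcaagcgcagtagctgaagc
Rpl22l1: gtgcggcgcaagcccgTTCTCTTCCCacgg
The sequences are RefSeq's, on build GRCm38.p6. The windows are chr2:39005117-39005146 on the minus strand for Rpl35, chr17:27635230-27635259 on the minus strand for Rps10 and chr3:90213634-90213663 on the minus strand for Rps27. Those of the paralogs are chr9:66946071-66946100 on the plus strand for the first of the annotated starts of Rps27l, chr17:46782642-46782671 on the minus strand for Rpl7l1 and chr3:28805493-28805522 on the plus strand for Rpl22l1. Rpl35, Rps10 and Rps27 started at a C inside the run. Rps27l and Rpl22l1 started at a G, with the run before the start in Rps27l and after it in Rpl22l1, and the longest run of Rpl7l1 was 2 bases. Of the 39 member genes, 36 had an entry, with 43 starts. A run of 8 or more bases of C and T lay in this window at 18 of the 43 starts (41.9%), against 12.0% of all 32851 promoters in the table. A start at C followed by 4 further C or T bases was found at 7 of them (16.3%), against 2.5% of all promoters. Those 7 were Rpl14, Rpl35, Rplp2, Rps6, Rps10, Rps18 and Rps27. Most ordinary members, like the 3 paralogs, did not meet this rule at their annotated start, which can lie some bases from the start in use. In the whole 300 bases of each entry, CCGGAAG on either strand was found at 37.2% of member starts and 8.9% of all promoters. AAGATGG, likewise on either strand, was found at 16.3% of member starts and 6.3% of all promoters. TATAAA was found at 11.6% of member starts and 13.6% of all promoters. The last letters of CCGGAAG are the first of AAGATGG, so 1 stretch can hold both, and a match is a description of sequence, not of binding.

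The messages of the family were nearly level between the groups. Of the 51 members, 2 passed an adjusted p of 0.05 (limma, Benjamini-Hochberg over all 22748 tested probe sets), both higher in luciferase neurons, and 0 were lower. That is 3.92% of members, beside 24.5% of all tested probe sets. With the fold change of 1.5 that the study's methods also ask for, 0 of 51 members were called in either direction, beside 4.19% of all tested probe sets, 2.9% higher and 1.29% lower. At an unadjusted p under 0.05 there were 12 members, 9 higher and 3 lower, which is 23.5% beside 38.9% of all tested probe sets. The array shift matters for direction: of all tested probe sets 16.2% passed as higher and 8.26% as lower, but 9.1% and 15.3% once each array was centred on its own median.

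**Figure D1:**
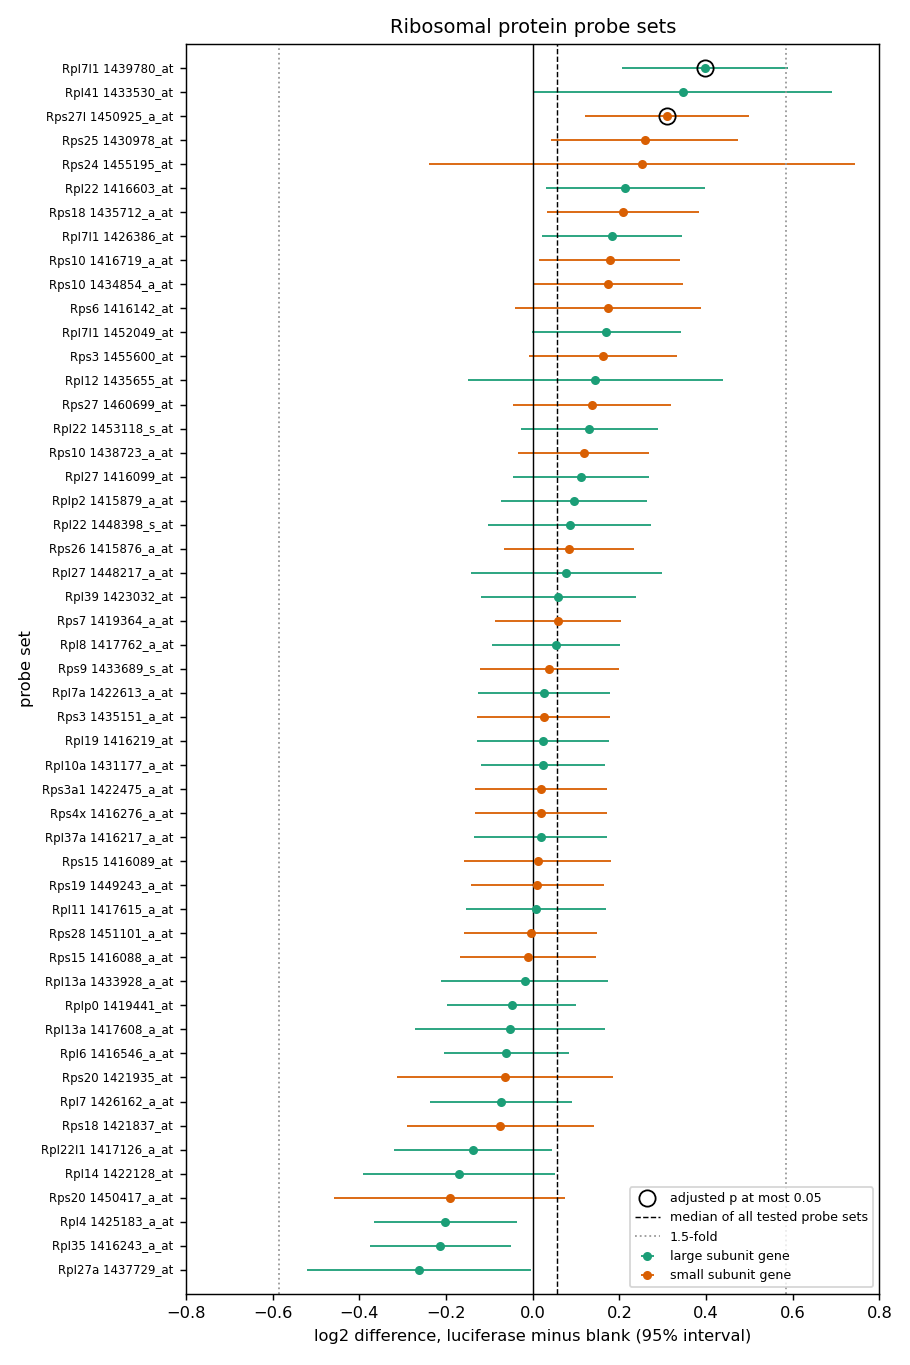
Log2 difference, luciferase minus blank, of each of the 51 ribosomal protein probe sets (points) with its 95% interval (lines), sorted by size, with genes of the large and small subunit in different colours. All points lie between -0.26 and 0.40, and the only ringed points, which passed the adjusted p, are 1 probe set each of Rpl7l1 and Rps27l.

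The differences were also tightly packed. The median log2 difference of members was 0.039, and that of all tested probe sets was 0.056, a gap of -0.017. The interquartile range of the members was 0.17 on the log2 scale, against 0.33 for all tested probe sets. Positive differences made up 36 of 51 members (70.6%), against 59.0% of all tested probe sets. The 95% interval lay inside 1.5-fold in either direction for 48 of 51 members, and for 18354 of all 22748 tested probe sets. The member intervals that reached further belonged to Rps24, Rpl41 and the Rpl7l1 probe set that passed. Inside a narrower limit of 0.322 on the log2 scale in either direction lay the intervals of 32 of 51 members. The same held for 7326 of all 22748 tested probe sets.

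Most members are bright on this array, and bright probe sets moved less in general, so bright members were also set beside other bright probe sets. Among 35 members with a mean intensity of 1000 or more, 1 passed (2.86%), beside 20.1% of the 3367 tested probe sets above that limit. Intensity was not matched there, with a median of 7282 for the members and 1872 for the tested probe sets. Among 26 members at 5000 or more, 0 passed, beside 7.62% of 420 tested probe sets. Their medians were 8605 and 7189, and the 420 include the members and ribosomal protein probe sets that name several genes. The interquartile range of the 26 members was 0.058 on the log2 scale, against 0.15 for the 420. At 5000 or more an unadjusted p under 0.05 was found for 4 members (15.4%) and for 18.3% of all tested probe sets. In the share past each p, the gap to all tested probe sets was thus narrower among the brightest probe sets. The members' interquartile range still lay below that of the tested probe sets there. The 16 members under 1000 had a median log2 difference of 0.15, beside 0.058 for the 19381 tested probe sets under 1000. Their interquartile range was 0.27 against 0.35, and 1 passed (6.25%), beside 25.2%. For the 35 members at 1000 or more the median was 0.025, beside 0.046 for the 3367. Both intensity limits were chosen after the values were seen.

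**Figure D2:**
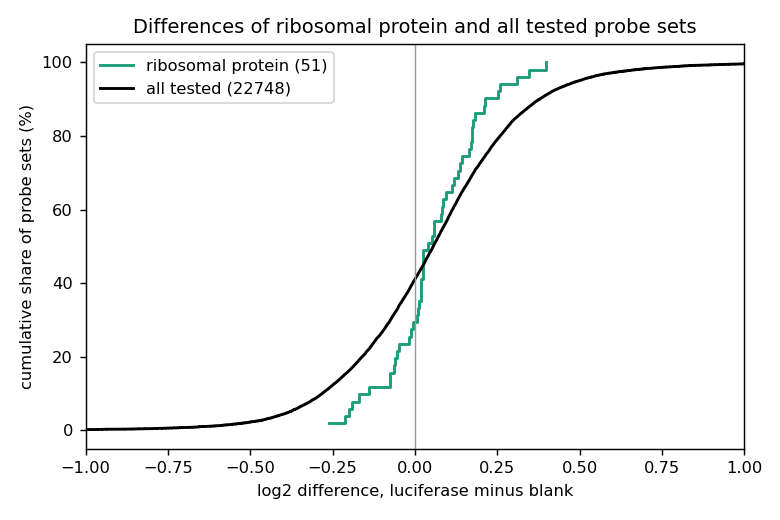
Cumulative share of probe sets (%) by log2 difference, luciferase minus blank, for the 51 ribosomal protein probe sets and all 22748 tested probe sets. The ribosomal protein curve climbs more steeply around 0, with an interquartile range of 0.17 against 0.33, and has no point below -0.26 or above 0.40.

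Rpl7l1, a large subunit paralog whose yeast relative Rlp7 takes part in assembling the large subunit, had the largest difference. The dimmest of its 3 probe sets gave intensities of 154, 150, 141 and 153 on luciferase arrays, against 104, 110 and 127 on blank arrays. All luciferase arrays were higher than all blank arrays. The mean was 149 ± 5.94 in luciferase neurons and 114 ± 11.9 in blank neurons (SD, n = 4 and n = 3), a log2 difference of 0.40 (SE 0.086, limma adjusted p = 0.011). The exact two-sided permutation test over arrays gave p = 0.029, the smallest that 4 against 3 allows. This was the single member that passed under each of 15 alternative settings, with limma adjusted p between 0.0006 and 0.047.

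The other probe sets of Rpl7l1 pointed the same way and did not pass. The next gave 447, 446, 406 and 459 on luciferase arrays, against 391.7, 384 and 385 on blank arrays, a log2 difference of 0.18 (limma adjusted p = 0.092). The third gave 569, 533, 505 and 489 on luciferase arrays, against 456, 461 and 479 on blank arrays, a log2 difference of 0.17 (limma adjusted p = 0.13). Neither overlapped between the groups, and the size of the difference varied by 0.23 on the log2 scale over the 3 probe sets. They read 1 gene and are not separate evidence.

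Rps27l, a small subunit paralog of Rps27 that p53 induces in human and mouse cells, also rose. Its member gave 2099, 2297, 2222 and 2375 on luciferase arrays, against 1748, 1696 and 2007 on blank arrays. The lowest luciferase array stood above the highest blank array, which was blank replicate 7. The log2 difference was 0.31 (SE 0.084, limma adjusted p = 0.028). The call was held under 8 of 15 alternatives and lost in the others, with limma adjusted p between 0.0023 and 0.096. It was lost without luciferase replicate 2, 3 or 4 or blank replicate 5 or 6, without the intensity filter (0.052) and after centring of the arrays (0.057). The ordinary gene Rps27 was read by 1 dim member, at 134, 158, 148 and 141 on luciferase arrays and 131, 126 and 140 on blank arrays, with overlap and a log2 difference of 0.14 (limma adjusted p = 0.24). A far brighter probe set annotated to Rps27 and Rps27rt lay at 0.053 (limma adjusted p = 0.61). Whether Rps27l and Rps27 differ in response was not tested.

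Rpl22l1 and Rpl22 are a pair in which the mouse Rpl22 protein represses the paralog's message. Rpl22l1 gave 2805, 3046, 2857 and 2704 on luciferase arrays, against 2976, 3019 and 3432 on blank arrays. The groups overlapped, and the log2 difference was -0.14 (SE 0.081, limma adjusted p = 0.24). It passed as lower only after centring of the arrays, at -0.23 and an adjusted p of 0.042. The 3 probe sets of Rpl22 had log2 differences of 0.21, 0.13 and 0.086 (limma adjusted p of 0.085, 0.20 and 0.48). The Rpl22 probe set nearest to the threshold gave 2072, 2096, 1875 and 2151 on luciferase arrays, against 1894, 1768 and 1638 on blank arrays, and luciferase replicate 3 lay below the highest blank array.

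Apart from these paralogs, 46 probe sets of 36 genes remained, and 0 of them passed. Their lowest limma adjusted p was 0.059, their differences lay between -0.26 and 0.35, and 9 had an unadjusted p under 0.05, 6 higher and 3 lower. Of all tested probe sets 38.9% had an unadjusted p under 0.05. The genes described next other than Rplp0, Rplp2, Rpl11 and Rps6 were chosen after their values were seen. Rps27 and Rpl22 were described above as the partners of paralogs.

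**Figure D3:**
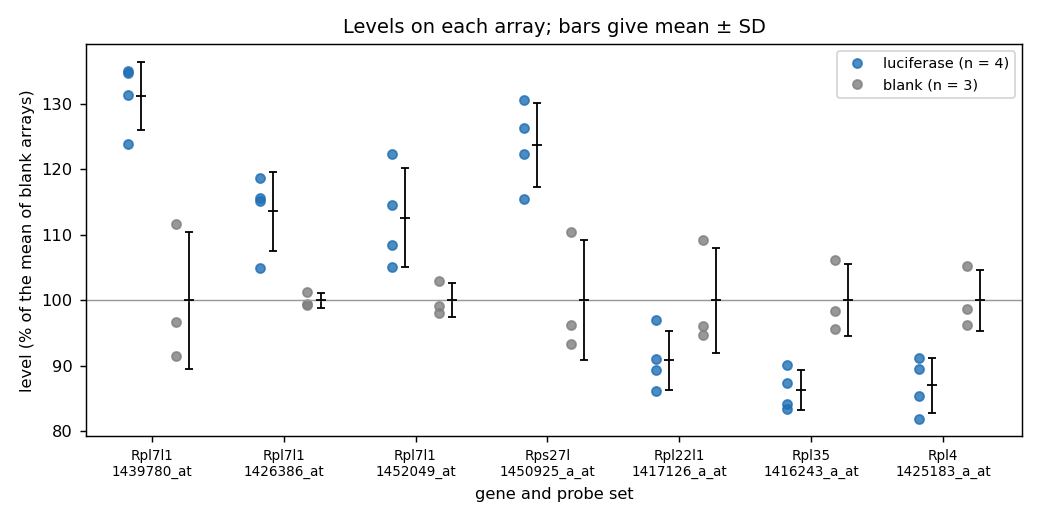
Intensity of 7 probe sets on each luciferase array (left of each pair, n = 4) and blank array (right, n = 3), as % of the mean of the blank arrays, with mean and SD beside the points. Rpl7l1 and Rps27l lie higher and Rpl35 and Rpl4 lower on all luciferase arrays, and Rpl22l1 overlaps.

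In the large subunit, the members closest to a fall were Rpl35 and Rpl4. Rpl35, which sits at the mouth of the exit tunnel, gave 6100, 5919, 5643 and 5701 on luciferase arrays, against 6662, 6469 and 7186 on blank arrays. The groups did not overlap, and the log2 difference was -0.21 (SE 0.073, limma adjusted p = 0.059). It passed as lower under 5 of 15 alternatives. Rpl4, part of which lines the tunnel, gave 8320, 8883, 7981 and 8727 on luciferase arrays, against 10257, 9373 and 9610 on blank arrays. Again the groups did not overlap, with a log2 difference of -0.20 (SE 0.074, limma adjusted p = 0.074), and it passed under 3 of 15 alternatives. Rpl6 was the remaining member with all luciferase arrays below all blank arrays, at a log2 difference of -0.061 (limma adjusted p = 0.51). Members without overlap numbered 15 in all, 12 higher and 3 lower, or 29.4% beside 34.8% of all tested probe sets.

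Rpl27a had the most negative difference, but its blank arrays were spread. It gave 317, 286, 277 and 317 on luciferase arrays, against 432, 341 and 311 on blank arrays, a log2 difference of -0.26 (SE 0.12, limma adjusted p = 0.12). Blank replicate 7 lay inside the luciferase range, and without it the log2 difference was -0.36 with a limma adjusted p of 0.038. A far brighter probe set annotated to Rpl27a and other genes had a log2 difference of 0.012 (limma adjusted p = 0.91). The member of Rpl41, the shortest ribosomal protein, was near the intensity limit. It gave 65.5, 80.5, 76.7 and 64.2 on luciferase arrays, against 59.3, 43.2 and 69.2 on blank arrays, and the log2 difference of 0.35 had a limma adjusted p of 0.13. The limma adjusted p was 0.034 with array weights and 0.033 without blank replicate 7. In a fit that kept _x probe sets, far brighter ones of Rpl41 lay at 0.17 and 0.11 (limma adjusted p of 0.12 and 0.26), without overlap. Rpl11, which together with Rpl5 can bind and restrain Mdm2, had a log2 difference of 0.0074 (95% interval -0.16 to 0.17). It gave 7293, 7136, 6606 and 7554 on luciferase arrays, against 7078, 7107 and 7122 on blank arrays, so luciferase arrays lay on both sides of the blank arrays.

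Rplp0 and Rplp2 form, with Rplp1, the stalk of the large subunit that recruits elongation factors. Rplp0 gave 8570, 8687, 8169 and 8574 on luciferase arrays, against 8811, 8649 and 8909 on blank arrays, a log2 difference of -0.049 (limma adjusted p = 0.62). Rplp2 gave 9154, 9163, 8623 and 9390 on luciferase arrays, against 8480, 7965 and 9094 on blank arrays, a log2 difference of 0.095 (limma adjusted p = 0.38). Both overlapped between the groups. The 28 large subunit members together had a median log2 difference of 0.026, with 1 higher and 0 lower at the adjusted p.

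The 23 small subunit members had a median log2 difference of 0.058, with 1 higher, Rps27l, and 0 lower. Rps10, a protein of the head that is ubiquitinated in human cells when ribosomes collide, was read by 3 probe sets that all pointed up. Their log2 differences were 0.18, 0.17 and 0.12 (limma adjusted p of 0.10, 0.12 and 0.22). The brightest, with the smallest of these differences, gave 9753, 9315, 8938 and 9222 on luciferase arrays, against 8528, 8544 and 8637 on blank arrays, without overlap. With a variance trend and robust estimation in limma all 3 passed as higher, and with the main settings none did.

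Rps18, also in the head, gave 6539, 6526, 5849 and 6686 on luciferase arrays at the brighter of its probe sets, against 5772, 5218 and 5620 on blank arrays. The groups did not overlap, and the log2 difference was 0.21 (SE 0.078, limma adjusted p = 0.079). In a fit that kept _x probe sets, similarly bright ones of Rps18 lay at 0.16 and -0.057 (limma adjusted p of 0.14 and 0.57). Rps25, which in yeast and human cells serves initiation at some internal entry sites, gave 322, 381, 339 and 376 on luciferase arrays, against 327, 267 and 296 on blank arrays, with overlap and a log2 difference of 0.26 (limma adjusted p = 0.077). A far brighter probe set annotated to Rps25 and other genes lay at -0.011 (limma adjusted p = 0.92). Rps6, the substrate of the S6 kinases, gave 330, 266, 265 and 305 on luciferase arrays, against 272, 252 and 249 on blank arrays. It overlapped, with a log2 difference of 0.17 (SE 0.096, limma adjusted p = 0.21). The sign was not shared by 3 probe sets annotated to Rps6 and a pseudogene, which lay at -0.41 (limma adjusted p = 0.032, past under 9 of 15 alternatives), -0.14 (limma adjusted p = 0.31) and, for the brightest, -0.0013 (limma adjusted p = 0.99). Rps24, a gene mutated in human Diamond-Blackfan anaemia, turned on 1 array. It gave 61.8, 65.3, 60.9 and 32.7 on luciferase arrays, against 43.8, 40.4 and 50.4 on blank arrays, and luciferase replicate 4 alone lay below the blank arrays. Its log2 difference was 0.25 (limma adjusted p = 0.42), and 0.49 (limma adjusted p = 0.014) without that array. This member lay at the intensity limit, and far brighter _x probe sets of Rps24 did not share its sign. In a fit that kept them they lay at -0.082, -0.036, -0.11 and -0.015 (limma adjusted p of 0.43, 0.7, 0.32 and 0.91).

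Where a gene had several members, they mostly pointed the same way. Of 9 such genes, 7 had members of 1 sign and 2, Rps15 and Rps18, had mixed signs. Within a gene the log2 differences varied by 0.022 in Rps15 to 0.28 in Rps18, where the second probe set was near the intensity limit. A bright _x probe set of Rps18 also differed in sign from its brighter member, as given above. Probe sets outside the rule had medians near 0 but a wider range. The 56 tested ribosomal protein probe sets that name several genes had a median log2 difference of 0.0014 and a range of -0.47 to 1.03, with 3 higher and 3 lower (10.7% past the adjusted p). They cannot be assigned to 1 gene, and those described here were chosen after their values were seen, apart from Rpl5 and Rps6. The single one past 1.5-fold was annotated to Rps15a and a pseudogene. It gave 180.4, 163, 176 and 142 on luciferase arrays, against 75.4, 83.5 and 83.8 on blank arrays, a log2 difference of 1.03 (SE 0.097, limma adjusted p = 0.00034) that passed under all 15 alternatives. A brighter probe set with the same annotation had a log2 difference of -0.027 (limma adjusted p = 0.82). Rpl5, the partner of Rpl11, shared 3 probe sets with a pseudogene. They had log2 differences of -0.47 (limma adjusted p = 0.0042), -0.34 (limma adjusted p = 0.030) and, for the brightest, -0.048 (limma adjusted p = 0.63). The first gave 609, 523, 550 and 563 on luciferase arrays, against 762, 821 and 746 on blank arrays, without overlap. It passed under all 15 alternatives, and the second under 11. The 38 _x probe sets of 1 gene, in a fit that kept them, had a median of 0.0012, with 1 higher and 0 lower. That 1 was a further probe set of Rps27l, at 0.24 (limma adjusted p = 0.036). It gave 1788, 1891, 1817 and 1956 on luciferase arrays, against 1547, 1542 and 1648 on blank arrays. Another _x probe set of Rps27l lay at 0.18 and did not pass (limma adjusted p = 0.12).

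The shift of whole arrays was larger than the family's median log2 difference of 0.039. Centring each array on its own median moved every member by -0.096. The median intensity of all tested probe sets was 240.0, 241, 237 and 241 on luciferase arrays, against 224, 216 and 235 on blank arrays. After subtracting each probe set's blank mean, the median over members was 0.038, 0.061, 0.021 and 0.072 log2 on luciferase arrays, against 0.016, -0.043 and 0.016 on blank arrays. The same median over all tested probe sets was 0.058, 0.066, 0.040 and 0.052 on luciferase arrays, against -0.011, -0.043 and 0.052 on blank arrays. On 3 of the 4 luciferase arrays the members' median was below that of all tested probe sets. Once the arrays were centred, the family's median log2 difference was -0.057. Its gap to the median of all tested probe sets stayed at -0.017.

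**Figure D4:**
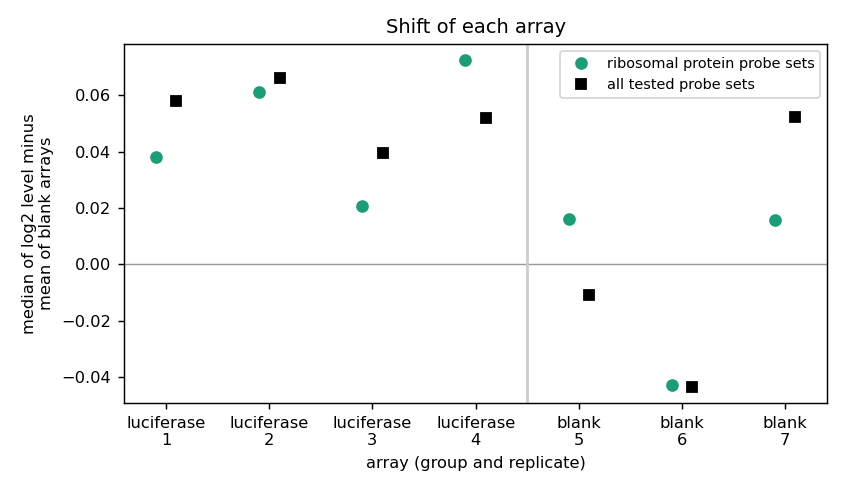
Median over probe sets of the log2 intensity minus that probe set's blank mean, for each of 4 luciferase and 3 blank arrays, over ribosomal protein probe sets (circles) and all tested probe sets (squares). Circles lie between 0.021 and 0.072 on luciferase arrays and between -0.043 and 0.016 on blank arrays, and the square of blank replicate 7 (0.052) lies among those of the luciferase arrays.

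Other genes of translation were read with 1 probe set a gene. On that basis 1 of 39 cytosolic ribosomal protein genes passed (2.56%), beside 25.4% of all 12315 named genes. Of 76 mitochondrial ribosomal protein genes, which serve the separate ribosome of the mitochondrion, 13 were higher and 3 lower (21.1%), but 4 and 6 after centring of the arrays, and 3 were higher without blank replicate 6. Mrpl34 fell to 339 ± 19.0 in luciferase neurons, against 614 ± 41.7 in blank neurons (SD, n = 4 and n = 3), a log2 difference of -0.86 (limma adjusted p = 0.00031). Mrps10 fell by 0.54 on the log2 scale (limma adjusted p = 0.0031), and Mrpl35 rose by 0.42 (limma adjusted p = 0.0058). The 3 calls held under all 15 alternatives. Mrps11 rose by 0.37 (limma adjusted p = 0.020) and held under 12 of them.

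Of 31 initiation factors measured among 36 listed, 2 were higher and 0 lower (6.45%). Eif1b, a relative of the start-codon factor Eif1, averaged 3656 ± 140.0 in luciferase neurons and 2794 ± 79.3 in blank neurons (SD, n = 4 and n = 3), a log2 difference of 0.39 (limma adjusted p = 0.0053) that passed under all 15 alternatives. Eif3k, a subunit of the scaffold factor of initiation, was higher by 0.25 (limma adjusted p = 0.038) and passed under 7 alternatives. Of 11 elongation and termination factors 0 passed, with a median log2 difference of 0.029. Of 4 other cytosolic ribosome components, such as ubiquitin fusions, 2 were measured and neither passed.

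Of 39 ribosome assembly factors, 4 were higher and 3 lower (17.9% beside 25.4% of all named genes), and 1 higher and 8 lower after centring of the arrays. Leaving out blank replicate 5, 6 or 7 gave 0, 1 or 8 higher in that order, and leaving out luciferase replicate 1 or 2 gave 0 lower. The higher ones included Riok1, a kinase of late small subunit maturation, with a log2 difference of 0.41 (limma adjusted p = 0.021), and Pno1, which acts at the same stage, at 0.29 (limma adjusted p = 0.016). The lower ones included Lyar, a nucleolar protein, at -0.32 (limma adjusted p = 0.028), and Fbl, the methyltransferase fibrillarin, at -0.30 (limma adjusted p = 0.030). These calls passed under 12, 13, 12 and 8 of 15 alternatives in the order given. Of 14 RNA polymerase I genes, whose products transcribe ribosomal RNA, 2 were higher and 0 lower (14.3%). They were Taf1c at 0.30 (limma adjusted p = 0.017) and Twistnb at 0.26 (limma adjusted p = 0.030), and neither passed after centring of the arrays or without blank replicate 6.

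Among 19 measured regulators of TOP messages and mTOR, 4 were higher and 1 lower, or 26.3% beside 25.4% of all named genes. With single arrays left out, 2 to 7 were higher and 0 to 1 lower. Mycn, a transcription factor that drives ribosome genes, averaged 969 ± 75.9 in luciferase neurons and 674 ± 39.5 in blank neurons (SD, n = 4 and n = 3), a log2 difference of 0.52 (limma adjusted p = 0.0036). Pdcd4, an inhibitor of the helicase Eif4a, was higher by 0.51 (limma adjusted p = 0.0033). Both held under all 15 alternatives. Mycl was higher by 0.44 (limma adjusted p = 0.042) with overlapping groups and held under 7 of them. Akt1s1, an inhibitor within mTOR complex 1, gave 716, 359, 479 and 462 on luciferase arrays, against 715, 823 and 795 on blank arrays. Luciferase replicate 1 lay at the level of the lowest blank array, and the log2 difference was -0.67 (limma adjusted p = 0.033). When any 1 of the other arrays was left out it missed the threshold, with adjusted p between 0.059 and 0.098. Larp1 and Mtor are named outside the rule, after their values were seen. Larp1 had a log2 difference of -0.092 (limma adjusted p = 0.50) and Mtor of 0.11 (limma adjusted p = 0.31).

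**Figure D5:**
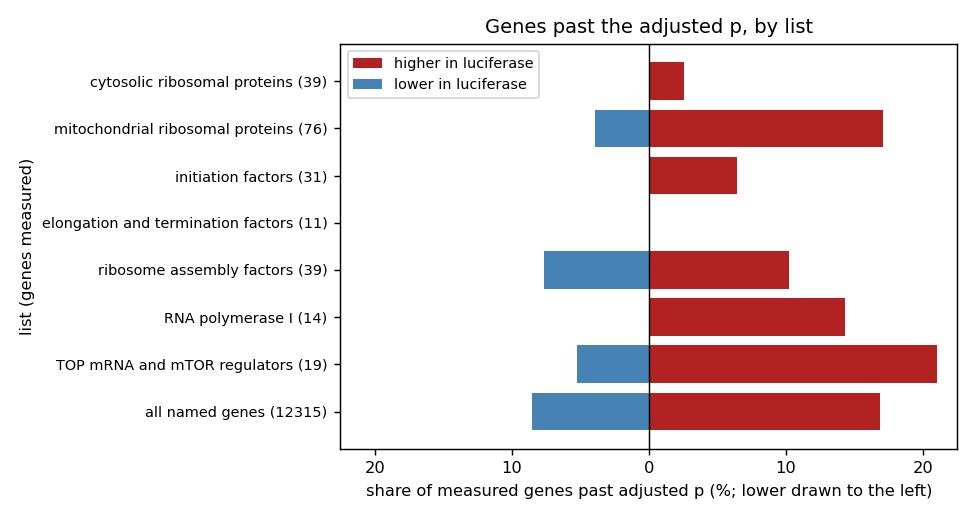
Share of measured genes (%) that passed the adjusted p as higher (right of 0) or lower (left of 0) in luciferase neurons, for 7 lists of translation genes and all named genes, with 1 probe set a gene and the number of genes measured in brackets. Cytosolic ribosomal proteins and elongation factors have 1 of 39 and 0 of 11 genes past, beside 25.4% of all named genes.

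The makeup of the cultures was read from marker lists. Over all 12315 named genes, 2076 were higher and 1053 lower at the adjusted p (25.4%). All 9 neuron markers were measured, with 1 higher and 1 lower, and their summed intensity was 47040 to 48540 on luciferase arrays and 46400 to 49730 on blank arrays. Of 8 astrocyte markers, 6 were higher and 0 lower, with a sum of 23430 to 25720 on luciferase arrays and 17320 to 19400 on blank arrays. Of 7 vascular and meningeal markers 4 were measured, 1 higher and 2 lower, with a sum of 524 to 712 on luciferase arrays and 933 to 1088 on blank arrays. Of 8 microglia markers, 6, including Aif1, Cx3cr1 and Tyrobp, stayed under 50 on all arrays, and 0 of the other 2 passed. Of 6 oligodendrocyte lineage markers measured 1 was higher, and of 4 proliferation markers 0 passed. The astrocyte and vascular lists moved with the groups in the same arrays as Rpl7l1 and Rps27l, and their part in those results was not tested.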

How the data were processed

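Biotinylated RNA of each culture was read on an Affymetrix mouse expression array. The deposited values were intensities on a linear scale, which the authors made by robust multi-array averaging (RMA), per the labels. In the series table the blank columns lay 1 row below their probe sets. Across probe sets the mean log2 of the blank columns correlated at r = 0.995 with that of the luciferase columns once moved up by 1 row, and at 0.421 as deposited, so they were moved. Control probe sets (64) and _x probe sets (2441) were left out, and an intensity of 50 on any of the 7 arrays was required. The study set the same limit over all its groups, most of which are not analysed here, so the tested probe sets differ. Genes were named by the platform annotation, with 20536 of the 22748 tested probe sets assigned 1 gene. Log2 intensities were fitted with limma 3.58.1 (lmFit and eBayes) in R 4.3.3, luciferase minus blank, and p-values were adjusted by Benjamini-Hochberg across the whole tested table. Single probe sets were also given an exact permutation test over arrays. Intensities of different probe sets are not comparable, and 7 arrays limit the precision.

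Genes were named where they were called, were among the 10 largest changes past the adjusted p, were paralogs, were stalk genes or Rpl5, Rpl11 and Rps6, or led another translation list, with exceptions stated. The members and lists were chosen with earlier results of these data known. The fit was checked on simulated data. Alternatives covered filters, quantile normalization, array centring, limma's trend, array weights, _x probe sets, single arrays left out and the choice of probe sets. A limit of 1000 on the mean intensity was added after seeing the data. A comparison of paralog protein sequences was not made here.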

Additional observations from a re-analysis of the deposited data

Results flagged for a closer look

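In 3 members 1 luciferase array stood apart from the other 3 by more than Dixon's critical value for 4 samples. Chance flags about 1 in 20 such groups, and 51 were looked at. Rps24 read 32.7 on luciferase replicate 4, against 60.9 to 65.3 on the other luciferase arrays and 40.4 to 50.4 on blank arrays. Rpl8 read 7448 on luciferase replicate 3, against 7652 to 7690 on the other luciferase arrays and 7089 to 7514 on blank arrays. Rps3, at the dimmer of its probe sets, read 333 on luciferase replicate 1, against 306 to 310.4 on the other luciferase arrays and 262 to 300.1 on blank arrays.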

How the results depend on the processing

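No member was called with the 1.5-fold limit under any of 18 alternatives (adjusted p from limma throughout). Members past the adjusted p numbered 2 higher and 0 lower under the main settings. They numbered 1 higher without the intensity filter, with 1 probe set per gene, with neither _s nor _a in the name, or at a mean intensity of 1000 or more. They numbered 1 higher and 3 lower with each array centred, 7 and 2 with trend and robust estimation, and 6 and 3 with array weights. An intensity of 100 on 1 array or quantile normalization gave 1 lower. Leaving out single arrays gave 1 to 4 higher and 0 to 1 lower, and 4 and 1 came without blank replicate 7. The cause was not tested.

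The members' median log2 difference of 0.039 was -0.057 with centring, 0.14 with neither _s nor _a in the name, and 0.023 to 0.050 with single arrays left out. The 20 members with neither ending were dimmer, with a median intensity of 287 beside 7123 for the 31 members with either ending. Relative to all tested probe sets the median of -0.017 was 0.046 without the filter, -0.040 at an intensity of 100, 0.033 with quantile normalization, 0.085 with neither ending, and -0.038 to -0.0085 with single arrays left out. Whether the family lies above or below the median of all probe sets therefore depends on these settings.

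Centring moved every member by -0.096, so the sign of all 18 members between 0 and that size turned, which shows only how small they were. Among those described these were the dimmest probe set of Rpl22 (-0.010), Rplp2 (-0.0011), Rpl11 (-0.089), Rpl8 (-0.043), Rps26 (-0.013) and Rps7 (-0.038). Rpl11 also turned with array weights (-0.0024) and without luciferase replicate 1 (-0.0029) or 4 (-0.020), in a range of -0.020 to 0.045 with single arrays left out. The brightest probe set of Rps6 and its pseudogene, at -0.0013, was at 0.022 with quantile normalization and between -0.030 and 0.017 with single arrays left out. No paired analysis was possible because the luciferase arrays are numbered 1 to 4 and the blank arrays 5 to 7, so the groups share no replicate number. Precision is limited by 7 arrays and, for Rps24, Rpl41 and the dimmer probe set of Rps18, by signal under 50 on some arrays.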
